A study of Arabidopsis thaliana with 6 samples.

Results

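Transcript levels of 9 genes of the plant microRNA processing machinery were compared between the Arabidopsis thaliana wild type Col-0 and the cdc5 mutant. The genes were DCL1 (AT1G01040), HYL1 (AT1G09700, listed as DRB1), SE (AT2G27100), TGH (AT5G23080), DDL (AT3G20550), CBP20 (AT5G44200), CBP80 (AT2G13540, listed as ABH1), HEN1 (AT4G20910) and HST (AT3G05040). They were picked out by gene identifier, from a list drawn up with earlier results of these data known, and they account for 9 of 27947 genes and 13 of 45666 transcripts in the deposited table. RNA sequencing had been done on 3 Col-0 and 3 cdc5 libraries, all labelled as rosette leaves, with genotype as the labelled difference between the groups. The labels give no plant age and no allele for the mutant, whose titles end in numbers that can be read as replicates or as allele names. Separate plants are not stated for the 3 libraries of either genotype, and p-values therefore describe only the spread among these samples, which may be technical.

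MicroRNA genes are transcribed into long, capped primary transcripts that fold into hairpins, and in plants the RNase III enzyme DCL1 cuts these in the nucleus with the double-stranded RNA-binding protein HYL1 and the zinc-finger protein SE. TGH, a G-patch protein, and DDL, a forkhead-associated domain protein, also take part in processing, while CBP20 and CBP80 bind the cap together as a heterodimer. HEN1 then methylates the ends of the small RNA duplex and HST, an importin-beta family protein related to animal exportin-5, takes part in its export. CDC5, a MYB-related protein of the spliceosome-associated MOS4 complex, is known to bind DCL1 and SE and to be needed for normal accumulation of many microRNAs. DCL1 is itself a microRNA target, being cleaved under the guidance of miR162, and it carries another microRNA, miR838, within an intron.

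The sequences through which DCL1 is tied to its own products are shown first, because its annotated transcripts differ within the miR162 site. Sequences and positions are those of the RefSeq annotation of TAIR10.1, in which all 13 transcripts have the same span as in the deposited table. The mature miR162 is the same from both of its loci, MIR162a at chr5:2634936-2634956 and MIR162b at chr5:7740610-7740630, both on the minus strand. Mature miR838 lies at chr1:28635-28655 on the plus strand. Capitals mark the seed, bases 2 to 8.
miR162: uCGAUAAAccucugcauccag
miR838: uUUUCUUCuacuucuugcaca
The marked bases differ between miR162 and miR838.

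Across the junction of coding exons 12 and 13, both DCL1 transcripts hold a site that pairs with all 21 bases of miR162 when a bulge is allowed in the messenger RNA. The site spans chr1:27522-27627 on the plus strand, with the intron between its parts. In the following lines capitals mark the paired bases and lower case the bulge.
DCL1 AT1G01040.1 miR162 site: CUGGAUGCAGAGGUaUUAUCGA
DCL1 AT1G01040.2 miR162 site: CUGGAUGCAGAGGUuguaUUAUCGA
The bulge has 1 base in AT1G01040.1 and 4 bases in AT1G01040.2, with 0 mismatches in either. In AT1G01040.2 the bulge can be placed at 2 positions with equal pairing, and the first is shown. Without a bulge the sites would hold 6 and 5 mismatches. The difference comes from tandem 5′ splice sites of intron 12, read here at chr1:27514-27557 on the plus strand, with the bases that stay in the exon only in AT1G01040.2 in capitals.
DCL1 tandem 5′ splice sites: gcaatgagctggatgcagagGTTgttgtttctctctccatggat
The annotated coding length is 5730 bases for AT1G01040.1 and 5733 bases for AT1G01040.2. The match is a description of these letters and no measurement of cleavage.

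Depth, the mutated gene and tissue markers describe the libraries. From the steps between low FPKM values (fragments divided by the length of the transcript and by the total of the library), the Col-0 libraries held an estimated 19.3 to 24 M fragments and the cdc5 libraries 20.1 to 25.8 M. This gave the 9 genes an estimated 340 to 2364 fragments per library. CDC5 (AT1G09770) itself stood at 57.5% of Col-0 in the mutant, with a log2 fold change of -0.77 (limma adjusted p = 2.35e-06). All 5 leaf markers were high in every library, with summed levels of 8582 to 9944 FPKM in Col-0 and 10376 to 10593 FPKM in cdc5. Of 7 listed markers of flower, pollen, root and seed, the floral genes AP1, AP3 and AG and the pollen gene VGD1 were also present in every library, which goes against a sample of rosette leaves alone. AP3 averaged 140 FPKM in Col-0 and 104 FPKM in cdc5, and VGD1 averaged 240 FPKM and 144 FPKM. The floral regulator LFY averaged 2.02 FPKM and 2.51 FPKM. The root gene PYK10 and the seed gene CRA1 did not exceed 0.383 FPKM in any library. The summed level of the 7 markers was 538 to 558 FPKM in Col-0 and 406 to 409 FPKM in cdc5. Both marker sums thus moved with genotype, the leaf sum upward and this one downward. The leaf markers RBCS1A, RCA, LHCB2.1 and SBPASE were higher in cdc5 under every scaling. CAB1 passed only after cyclic loess scaling (limma adjusted p = 0.00747). AP3 and VGD1 fell under every scaling, while the calls on AG (limma adjusted p = 0.0214, and 0.0514 after cyclic loess scaling) and AP1 (limma adjusted p = 0.143, and 0.0363 after the length and GC adjustment) depended on it. The part of these markers in the results below was not tested. In bulk RNA, fewer cells of a type and less RNA per cell cannot be told apart.

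Of the 9 genes, 6 were higher in cdc5, at 118% to 141% of the Col-0 mean, and 0 were lower. The genes that rose were CBP80, HST, HYL1, SE, HEN1 and TGH, and the genes that did not pass the test were DCL1, CBP20 and DDL. Under other scalings HEN1, TGH and HST lost their calls and DCL1 became lower, as given with each gene. Many genes differed between these genotypes: by limma on log2(FPKM + 1), with a Benjamini-Hochberg adjusted p under 0.05, 55.8% of 19778 tested genes passed in either direction. Of all tested genes, 33.3% were higher and 22.4% were lower. All 9 genes were expressed above the filter of a mean of 1 FPKM in both genotypes. The median log2 fold change was 0.23 over the 9 genes and 0.06 over all genes tested. On the deposited scale, the genotypes' libraries did not overlap for 7 of the 9 genes, with cdc5 above in 6 and below in 1. Of all tested genes, 63.6% had no overlap in either direction.

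**Figure D1:**
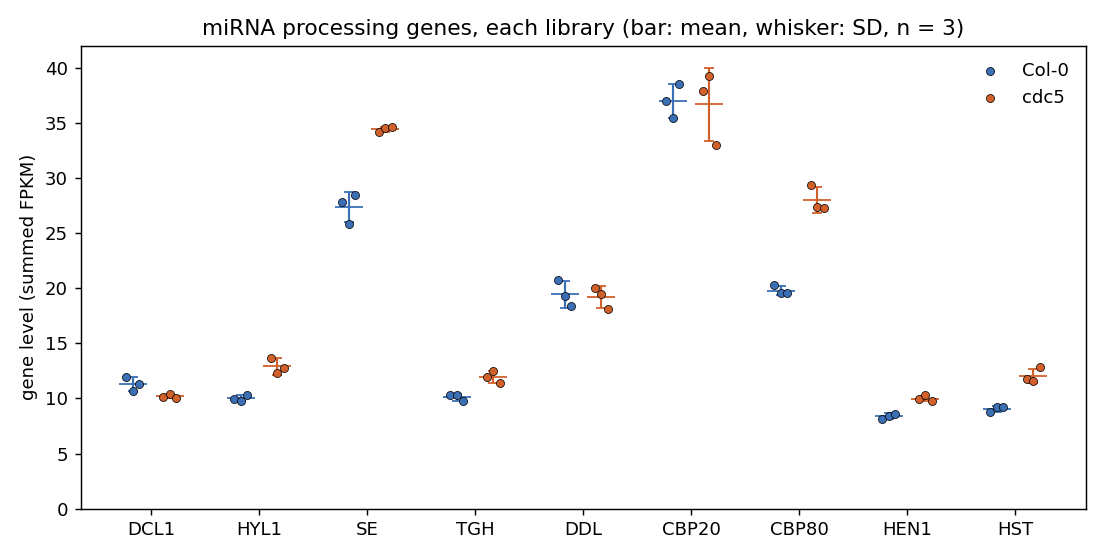
Summed FPKM of each of the 9 genes in each library, with points for the 3 Col-0 and 3 cdc5 libraries and a bar for the mean and SD of each genotype. The cdc5 points lie above all Col-0 points for 6 genes, below them for DCL1, and among them for CBP20 and DDL.

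The plot of levels by library starts with DCL1, the core enzyme, whose mean was lower in cdc5 while those of its partners HYL1 and SE were higher. DCL1 reached 12.0, 10.6 and 11.3 FPKM in Col-0 replicates 1, 2 and 3, and at 10.2, 10.4 and 10.03 FPKM in cdc5 replicates 1, 2 and 3. Every cdc5 library was below every Col-0 library, but the nearest of them were only a fraction of an FPKM apart. The FPKM of all transcripts summed to 622265 to 631289 in the Col-0 libraries and 598907 to 600726 in the cdc5 libraries. Levels were not scaled to equal totals. The sum was 631289 in Col-0 replicate 2, the lowest Col-0 library for DCL1, and 600617 in cdc5 replicate 2, the highest cdc5 library. Divided by these sums, DCL1 would be lower in that Col-0 library than in that cdc5 library. This narrow separation therefore does not hold at equal totals. The means were 11.3 ± 0.662 and 10.2 ± 0.176 FPKM (SD, n = 3 each), and the log2 fold change of -0.14 (SE 0.060, 95% interval -0.27 to 0.00) did not pass (limma adjusted p = 0.083). This value depended on the scaling. DCL1 was lower past the threshold after cyclic loess scaling, at -0.26 (limma adjusted p = 0.00581), and once transcript length and GC content were adjusted for, at -0.35 (limma adjusted p = 6.17e-04). Without Col-0 replicate 2 it passed as well, at -0.17 (limma adjusted p = 0.0453). Without Col-0 replicate 1 it was weaker, at -0.097, and did not pass (limma adjusted p = 0.237).

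HYL1, which binds the double-stranded hairpin beside DCL1, rose. Its level was 9.97, 9.77 and 10.4 FPKM in the Col-0 libraries and 13.7, 12.3 and 12.7 FPKM in the cdc5 libraries. No mutant library came near the wild-type range. The mean went from 10.03 ± 0.298 to 12.9 ± 0.734 FPKM (SD, n = 3 each), 129% of Col-0, with a log2 fold change of 0.33 (SE 0.060 and limma adjusted p = 0.00151). The last 36 bases of HYL1 overlap RPL21A, a ribosomal protein gene on the same strand at 540 FPKM in Col-0 and 499 FPKM in cdc5. The gene of origin of reads in this stretch is uncertain, and the log2 fold change of RPL21A was -0.11 as deposited (limma adjusted p = 0.0392) but 0.016 after cyclic loess scaling (limma adjusted p = 0.775).

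SE, which supports accurate cutting by DCL1 and also acts in splicing, rose as well. It reached 27.9, 25.8 and 28.45 FPKM in Col-0 and at 34.2, 34.5 and 34.6 FPKM in cdc5. The mutant libraries lay close together and well above the wild type. Means were 27.4 ± 1.40 and 34.5 ± 0.229 FPKM (SD, n = 3 each), with a log2 fold change of 0.32 (SE 0.047 and limma adjusted p = 4.62e-04). HYL1 and SE were higher past the threshold in all 12 alternative settings tried.

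Ratios within a library do not depend on a library's overall scale, and these were chosen after the levels had been seen. The ratio of HYL1 to DCL1 was 0.833, 0.918 and 0.917 in Col-0 and 1.35, 1.18 and 1.27 in cdc5. HYL1 was thus listed below DCL1 in each wild-type library and above it in each mutant library. The ratio of SE to DCL1 was 2.33, 2.42 and 2.52 in Col-0 and 3.37, 3.33 and 3.45 in cdc5. Neither ratio overlapped between genotypes, which follows from the levels above, where every cdc5 library was higher for HYL1 and SE and lower for DCL1. A two-sided exact permutation test gave p = 0.1 for each, the smallest that 3 libraries against 3 allow. This p was fixed by those levels and adds no support. Over the alternative settings, the log2 fold change of HYL1 exceeded that of DCL1 by 0.43 to 0.61, and that of SE exceeded it by 0.43 to 0.62.

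**Figure D2:**
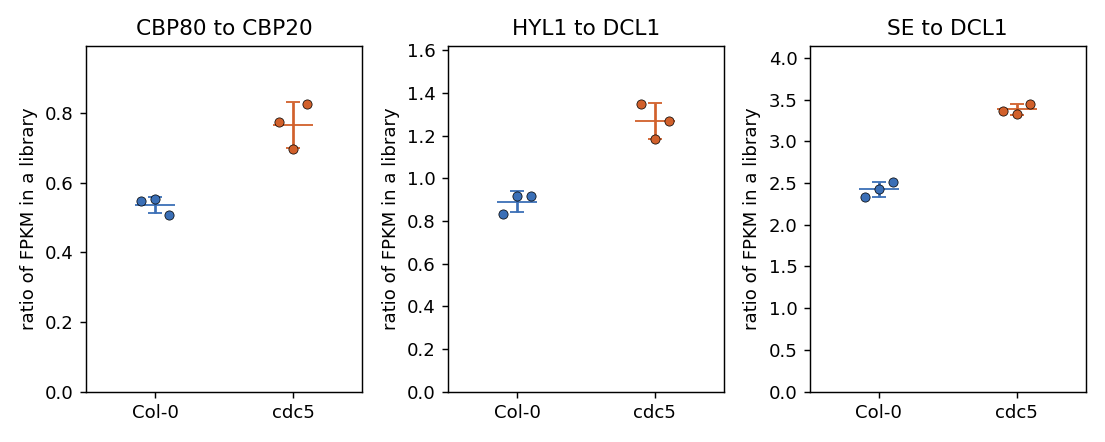
Ratio of summed FPKM within each library for CBP80 to CBP20, HYL1 to DCL1 and SE to DCL1, with points for the 3 libraries of each genotype and a bar for the mean and SD. In all 3 pairs every cdc5 point lies above every Col-0 point.

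TGH and DDL, the accessory factors, differed in whether they passed the test. TGH reached 10.3, 10.3 and 9.77 FPKM in Col-0 and at 11.9, 12.5 and 11.4 FPKM in cdc5. All mutant libraries were above all wild-type libraries. TGH rose from 10.1 ± 0.307 to 12.0 ± 0.541 FPKM (SD, n = 3 each), a log2 fold change of 0.22 (SE 0.058 and limma adjusted p = 0.0106). That call was lost after cyclic loess scaling, at 0.10 (limma adjusted p = 0.186), and after the length and GC adjustment, at 0.10 (limma adjusted p = 0.151). TGH overlaps TK1B on the opposite strand by 39 bases.

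DDL, by contrast, was at 20.7, 19.3 and 18.4 FPKM in Col-0 and at 20.02, 19.5 and 18.1 FPKM in cdc5. The genotypes overlapped almost fully. Its log2 fold change was -0.02, with a 95% interval of -0.16 to 0.12 (limma adjusted p = 0.82).

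Of the cap-binding complex, the large subunit passed the test and the small one did not. CBP80 was at 20.3, 19.6 and 19.6 FPKM in Col-0 and at 29.3, 27.3 and 27.2 FPKM in cdc5. The gap between genotypes was wider than the range within either. CBP80 rose from 19.8 ± 0.4003 to 28.0 ± 1.18 FPKM (SD, n = 3 each), 141% of Col-0, the highest proportion among the 9 genes, with a log2 fold change of 0.48 (SE 0.047 and limma adjusted p = 5.52e-05). CBP80 also passed in all 12 alternative settings, with log2 fold changes of 0.31 to 0.50.

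CBP20, the small subunit that contacts the cap, was at 37.0, 35.4 and 38.5 FPKM in Col-0 and at 38.0, 39.2 and 33.0 FPKM in cdc5. Mutant libraries lay both at the top and at the bottom of the whole range. The log2 fold change was -0.01, with a 95% interval of -0.16 to 0.14 (limma adjusted p = 0.87). The ratio of CBP80 to CBP20 was 0.547, 0.552 and 0.508 in Col-0 and 0.773, 0.697 and 0.827 in cdc5. It went from 0.536 ± 0.0239 to 0.766 ± 0.0652 (SD, n = 3 each) without overlap, again with the smallest possible two-sided exact permutation p of 0.1. This ratio too was chosen after the levels had been seen. The log2 fold change of CBP80 exceeded that of CBP20 by 0.34 to 0.56 over the alternative settings.

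Both genes that act after cutting rose. HEN1, the methyltransferase, reached 8.15, 8.415 and 8.63 FPKM in Col-0 and at 9.98, 10.3 and 9.74 FPKM in cdc5. The ranges were narrow and apart. The log2 fold change was 0.23 (SE 0.057 and limma adjusted p = 0.00876), but it was 0.11 after cyclic loess scaling (limma adjusted p = 0.158) and 0.04 after the length and GC adjustment (limma adjusted p = 0.623).

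HST was at 8.78, 9.27 and 9.19 FPKM in Col-0 and at 11.8, 11.6 and 12.8 FPKM in cdc5. All mutant libraries stood above the wild type, at a mean of 133% of Col-0. The log2 fold change was 0.37 (SE 0.060 and limma adjusted p = 8.57e-04). After the length and GC adjustment it was 0.17 and did not pass (limma adjusted p = 0.056).

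Across the 9 genes, then, the call depended on the scaling for 4 genes. With cyclic loess scaling 4 genes were higher (HYL1, SE, CBP80 and HST) and 1 was lower (DCL1). Of all 19778 genes tested, 5197 were higher and 5145 lower under this scaling. With the length and GC adjustment 3 were higher (HYL1, SE and CBP80) and 1 was lower (DCL1). Of all 19470 genes tested, 5124 were higher and 5167 lower under this adjustment. These scalings moved the median log2 fold change of all genes by -0.06 and -0.05.

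**Figure D3:**
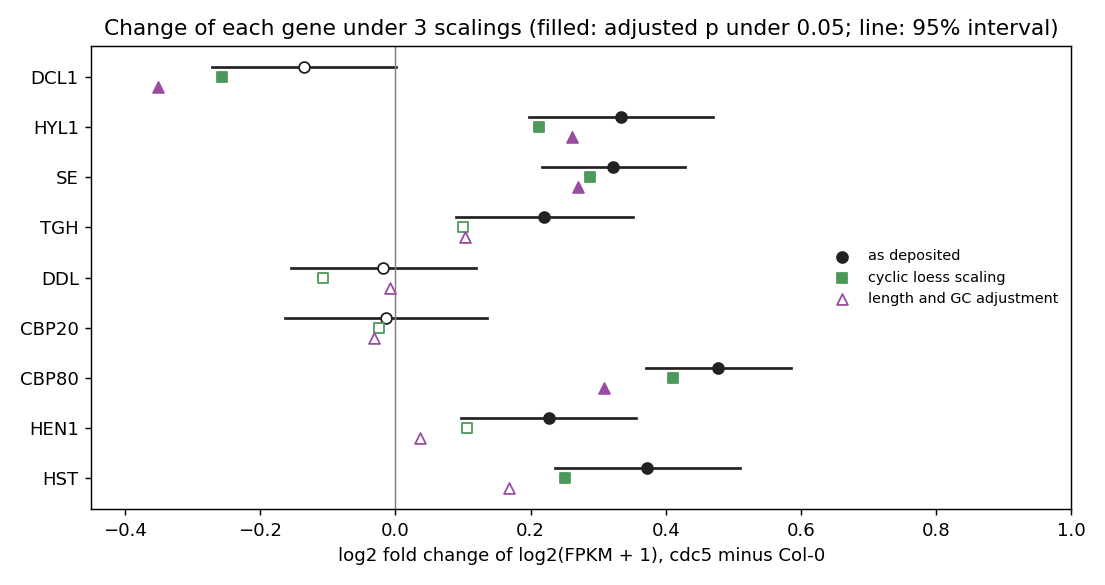
Log2 fold change of log2(FPKM + 1), cdc5 minus Col-0, for each of the 9 genes as deposited (circles, with the 95% interval as a line), after cyclic loess scaling (squares) and with length and GC content adjusted for (triangles), filled where the limma adjusted p is under 0.05. HYL1, SE and CBP80 are filled on the higher side under all 3 scalings, and DCL1 is filled on the lower side under the adjusted scalings only.

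The plot of changes under the 3 scalings places CBP80 highest as deposited and DCL1 lowest throughout. The order of levels also differed between genotypes. In Col-0 the order of mean FPKM was CBP20, SE, CBP80, DDL, DCL1, TGH, HYL1, HST and HEN1, where CBP80 and DDL overlapped, as did TGH and HYL1. In cdc5 it was CBP20, SE, CBP80, DDL, HYL1, HST, TGH, DCL1 and HEN1. There CBP20 overlapped SE, HYL1 overlapped HST, HST overlapped TGH, and DCL1 overlapped HEN1. DCL1 thus stood at rank 5 in the wild type and rank 8 in the mutant.

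Of the 13 transcripts, 12 had a mean of at least 1 FPKM and were tested singly. The sole listed transcripts of HYL1, SE, CBP80 and TGH were higher and 0 of the 12 were lower, where 31.0% of 27441 tested transcripts passed, 17.8% on the higher and 13.2% on the lower side. The TGH transcript (limma adjusted p = 0.0338) lost its call in 9 of the 12 alternative settings, and the others kept theirs in all. With a filter at 5 FPKM, where fewer transcripts were tested, HST AT3G05040.1 went from a limma adjusted p of 0.0583 to 0.0462 and HEN1 AT4G20910.1 from 0.0529 to 0.04. Of the 13 transcripts, 0 carried the mark of significance in the authors' deposited table, which 12.2% of all listed transcripts carried. By the q-value of the authors' deposited table, 5 of the 13 were under 0.05 (HYL1, SE, CBP80, TGH and HST AT3G05040.1), against 31.3% of all listed transcripts.

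DCL1, HST, CBP20 and HEN1 have 2 listed transcripts each. Isoform usage, tested with limma's diffSplice in the 3 genes with both transcripts above 1 FPKM, gave 0 calls among them, and 0 had an unadjusted p under 0.05. Over the alternative settings in which each could be tested, 0 passed in any, with limma diffSplice adjusted p from 0.0691 to 0.943 for DCL1, 0.132 to 0.751 for HST and 0.139 to 0.969 for CBP20. Over all genes that could be tested, 25.9% of 5456 were called.

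For DCL1, AT1G01040.1, with the 1-base bulge in the miR162 site, made up 43.1%, 24.2% and 23.9% of the summed FPKM in Col-0. In cdc5 it made up 55.0%, 34.2% and 26.7%. Replicate 1 had the highest share in each genotype, and the genotypes overlapped. The share was higher by 8.23 percentage points on average in cdc5 (limma diffSplice adjusted p = 0.432), but by 0.0402 points without cdc5 replicate 1 and by 14.6 points at most with other single libraries left out. AT1G01040.2, the longer-bulge form, was at 6.81, 8.07 and 8.60 FPKM in Col-0 and at 4.57, 6.83 and 7.36 FPKM in cdc5 (log2 fold change -0.30, limma adjusted p = 0.273). These transcripts also differ in their annotated ends, so a share reflects those ends as well as the 3 bases at the splice site. The 3′ end of DCL1 overlaps PPA1 on the opposite strand by 58 bases, and PPA1 was at 72.4 FPKM in Col-0 and 76.6 FPKM in cdc5 (limma adjusted p = 0.162, and 0.0349 to 0.0432 under the other scalings).

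HST also has transcripts that differ by 3 coding bases, here at tandem 3′ splice sites of intron 20, shown at chr3:1401805-1401848 on the minus strand. Capitals mark the bases kept as exon only in AT3G05040.2.
HST tandem 3′ splice sites: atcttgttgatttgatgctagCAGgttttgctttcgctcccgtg
AT3G05040.1 held 99.95%, 63.6% and 91.5% of the HST level in Col-0 and 94.05%, 89.7% and 99.3% in cdc5. These transcripts also differ in their annotated ends. The main form was the same in every library, and Col-0 replicate 2 stood apart with the lowest share. The difference of 9.33 percentage points did not pass (limma diffSplice adjusted p = 0.391), and it was -1.37 points without that library. AT3G05040.2 was listed at 0.004, 3.37 and 0.784 FPKM in Col-0 and at 0.699, 1.19 and 0.093 FPKM in cdc5, a coefficient of variation of 127% in Col-0 against 2.9% for the gene sum.

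CBP20 transcripts encode the same 774 coding bases, and AT5G44200.2 has an additional 95-base intron in its 5′ UTR. The transcripts also differ at both annotated ends, so a share reflects those ends as well as the intron. The edges of the intron are shown because it is the internal difference between the transcripts, at chr5:17803981-17804010 and chr5:17803886-17803915 on the minus strand, with intron bases in capitals.
CBP20 UTR intron 5′ splice site: ttgaagaagacgagtGTAAGTGTCTCTCCT
CBP20 UTR intron 3′ splice site: CTCTCATCATCGCAGattcacttcttctca
AT5G44200.1, in which these 95 bases stay as exon, held 20.2%, 27.6% and 14.5% of the CBP20 level in Col-0 and 71.4%, 24.5% and 15.9% in cdc5. The first mutant library alone had AT5G44200.1 as its main form. The mean difference of 16.5 percentage points (limma diffSplice adjusted p = 0.362) was -0.516 points without that library. The gene sum in that library, 38.0 FPKM, was within the range of the others.

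HEN1 was almost entirely AT4G20910.1, at 96.2%, 97.95% and 97.35% in Col-0 and 91.6%, 99.96% and 99.99% in cdc5. AT4G20910.2, which has an additional 449-base intron in its 5′ UTR, was too low to be tested. The annotated start of AT4G20910.1 lies within that intron, and the transcripts differ at both annotated ends. Both encode 2829 coding bases.

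**Figure D4:**
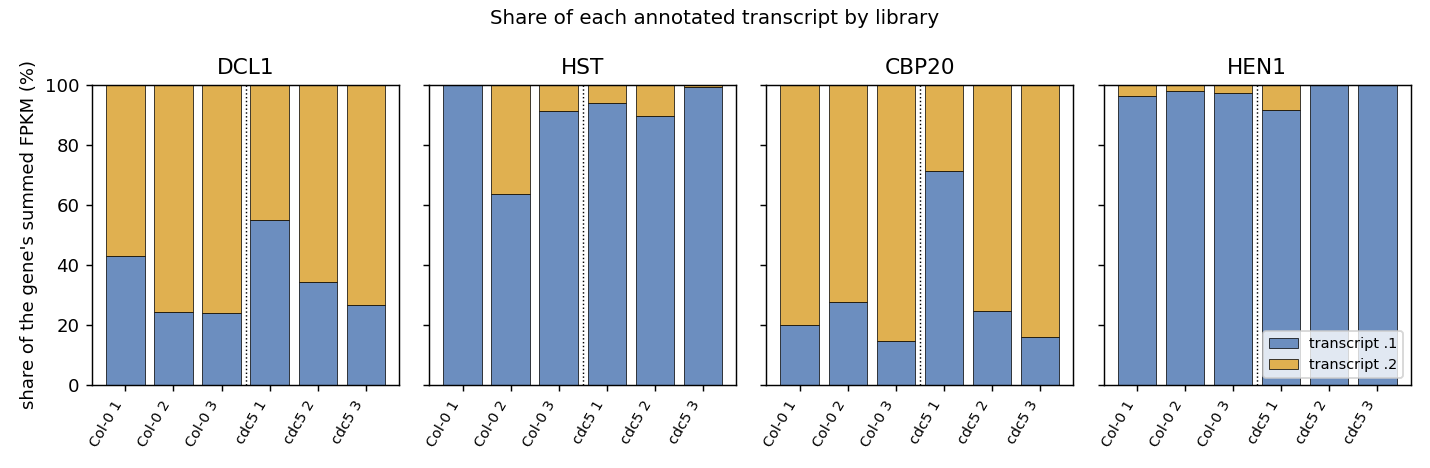
Share of each annotated transcript in the summed FPKM of DCL1, HST, CBP20 and HEN1, in percent, for each of the 6 libraries. AT5G44200.1 of CBP20 reaches 71.4% in cdc5 replicate 1 against 14.5% to 27.6% in the other libraries.

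The plot of shares is matched by transcript levels that varied more between libraries than the gene sums for DCL1 and CBP20. The coefficient of variation of the DCL1 sum was 5.9% in Col-0 and 1.7% in cdc5, against 42% and 37.9% for the FPKM of AT1G01040.1. For CBP20 the sum varied by 4.2% and 9.0%, and the FPKM of AT5G44200.1 by 27.6% and 82.6%. The sources used here do not say how reads were shared among transcripts.

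The microRNA loci tied to DCL1 were listed in the same table, as polyadenylated precursor RNA and not as mature microRNA. MIR162a was at 4.64, 4.74 and 4.75 FPKM in Col-0 and at 2.04, 1.09 and 2.39 FPKM in cdc5. Every mutant library was below every wild-type library, but the locus is 140 bases long and these levels rest on an estimated 12.8 to 15.6 fragments per Col-0 library and 3.9 to 7.2 per cdc5 library, near a floor of 3. The precursor fell by 1.04 on the log2 scale (SE 0.167 and limma adjusted p = 9.87e-04), and it overlaps no other listed gene. It fell by 1.10 after cyclic loess scaling (limma adjusted p = 6.77e-04), and the length and GC adjustment could not be fitted to it for want of a GC value. MIR162b was below the level tested. MIR838 lies inside intron 14 of DCL1 on the same strand, at chr1:28500-28706, so its reads cannot be told apart from unspliced DCL1. It was at 6.37, 4.49 and 5.70 FPKM in Col-0 and at 4.61, 3.53 and 1.54 FPKM in cdc5 (log2 fold change -0.69, limma adjusted p = 0.125). These ranges overlapped.

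Other genes of the pathway, taken from lists, are given for comparison with the 9. Of 29 further biogenesis factors 22 were higher and 3 were lower, with a median log2 fold change of 0.30, beside 33.3% higher, 22.4% lower and a median of 0.06 over all genes tested. Examples are KETCH1, an importin that carries HYL1 into the nucleus (29.0 to 41.4 FPKM, log2 fold change 0.50, limma adjusted p = 2.93e-05), and NOT2A, of the NOT2 family reported to bind DCL1 (14.9 to 21.8 FPKM, 0.52, limma adjusted p = 4.74e-05). MPK3, a kinase reported to phosphorylate HYL1, fell by 0.89 on the log2 scale (83.5 to 44.7 FPKM, limma adjusted p = 5.03e-07). GRP7, an RNA-binding protein, fell by 0.48 (137 to 98.1 FPKM, limma adjusted p = 1.35e-05). The third that fell was AAR2 (11.4 to 7.70 FPKM, limma adjusted p = 1.13e-04), named after its value was seen. The count depended on scaling, with 14 higher and 4 lower after the length and GC adjustment and a median of 0.10. Of all 19470 genes tested with that adjustment, 5124 were higher and 5167 lower, with a median of 0.008.

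Of the close relatives of DCL1 and HYL1, 5 of 7 were higher and 1 was lower, with a median of 0.36, where 33.3% of all tested genes were higher and 22.4% lower. After the length and GC adjustment 3 of 7 were higher, where 5124 of all 19470 genes tested were higher. DRB2, a relative of HYL1, rose from 20.4 to 29.2 FPKM (limma adjusted p = 3.08e-05), and DCL4, which makes small interfering RNA, rose from 8.04 to 10.4 FPKM (limma adjusted p = 0.00174), but not past the threshold after the length and GC adjustment (limma adjusted p = 0.153). DRB4 and DRB5 rose by 0.48 and 0.36 on the log2 scale (limma adjusted p = 1.25e-04 and 0.00117). DCL3, which fell by 0.21 (limma adjusted p = 0.0249), was named after its value was seen.

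In the MOS4-associated complex 6 of 8 genes were higher, against 33.3% of all tested genes, and the 1 that was lower was CDC5 itself, against 22.4%. MAC7 rose from 11.5 to 19.5 FPKM (log2 fold change 0.71, limma adjusted p = 1.40e-05), MAC5A from 27.6 to 39.7 FPKM (0.51, limma adjusted p = 3.49e-05) and MOS4 from 36.5 to 49.3 FPKM (0.42, limma adjusted p = 3.52e-05). Of the effectors of microRNA action, AGO1, which is itself a target of miR168, fell by 0.22 (110 to 94.4 FPKM, limma adjusted p = 0.00178), AGO2 fell by 0.46 (limma adjusted p = 3.73e-04) and AGO10 rose by 0.22 (limma adjusted p = 0.00655). The AGO10 call was lost after the length and GC adjustment, at 0.011 (limma adjusted p = 0.853).

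**Figure D5:**
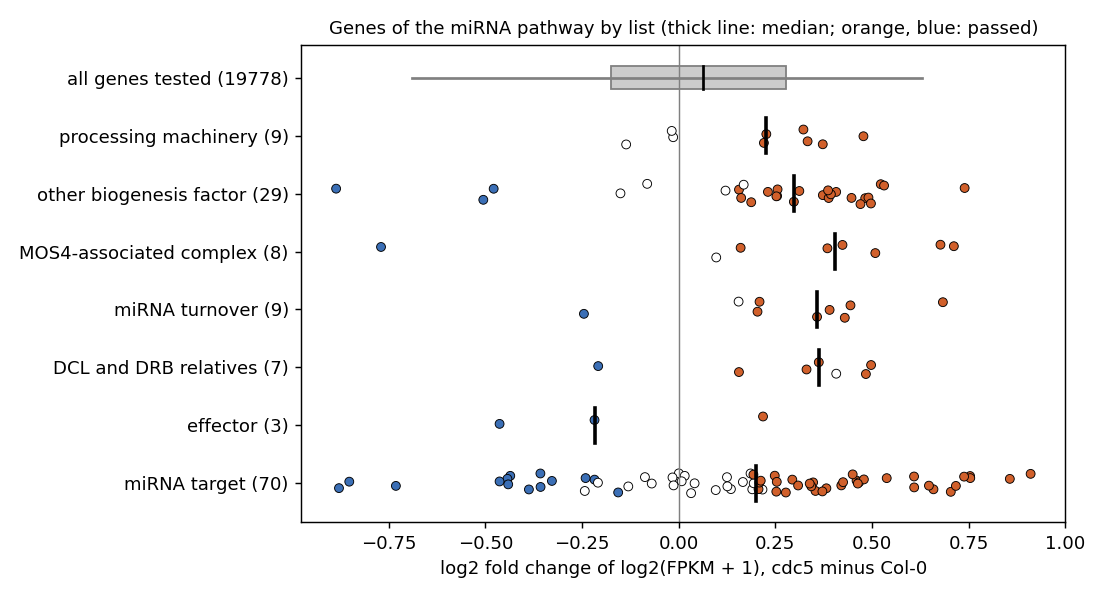
Log2 fold change of log2(FPKM + 1), cdc5 minus Col-0, of each tested gene in the lists of the microRNA pathway, with a box for all 19778 genes tested, thick lines for medians, and orange or blue points for genes higher or lower at a limma adjusted p under 0.05. The median of the processing machinery is 0.23, against 0.06 for all genes.

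The plot of the lists shows the 9 genes within the range of their pathway. By the root mean square difference of centred log2(FPKM + 1) over the 6 libraries, the genes most like DCL1 were AT5G35210 (0.00814) and MBD4 (0.0126). Those most like HYL1 were GYRB1 (0.0176) and AT2G38970 (0.0178), and those most like SE were MKK3 (0.0113) and PPR4 (0.0145). These are likenesses of pattern over the libraries, with each gene's own mean subtracted, and say nothing of level or function.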

How the data were processed

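Libraries were paired-end, made from oligo(dT)-selected RNA with a dUTP-marked second strand that was digested, per the labels' protocols. The authors deposited 1 table of FPKM values per transcript and library, with a ratio of means as the fold column, its log2, and p-value and q-value columns from a test the table does not name. Tools in the submitters' processing notes were StringTie 1.3.4d, HISAT2 2.0.4, edgeR, DESeq2 and cutadapt 1.9, with no roles. The build they name is a mouse build and cannot apply, and that of the table is not stated in those notes or the labels. Spans matched TAIR10.1 for 98.3% of transcripts. Strand-specific assignment of reads is not described there either.

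Gene levels were sums of transcripts. Features averaging 1 FPKM or more were compared with limma 3.58.1 (R 4.3.3) after a log2(FPKM + 1) transform, using trended and robust moderation, two-sided, over all 6 libraries with no covariate. P-values were Benjamini-Hochberg adjusted over all features tested, with a threshold of 0.05. This scale understates changes of low genes. Isoform usage used diffSplice (Simes p per gene). The script was tested on simulated data in which transcripts of a gene varied independently. Transcripts that trade off within a gene were not simulated. The table holds no counts. Depth was estimated from steps between low values, of which 63.5% to 66.8% lay within 0.1 of a whole multiple, too few to recover counts. A floor of 3 fragments over 1 kilobase was 0.117 to 0.155 FPKM and covers counting error only.

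The 12 alternatives were a pseudocount of 0.1, a filter at 5 FPKM or none, cyclic loess scaling, subtraction of a smooth curve on length and GC content, each library left out in turn, and the replicate number as a block. Ratios of partner genes were added after the values were seen. Named genes were the 9 genes and their transcripts, up to 4 genes of each other list with the smallest adjusted p, AGO1, the 2 genes most like DCL1, HYL1 and SE, CDC5, and genes overlapping a member. The members and lists were chosen with earlier results of these data known. Tables and plots used Python 3.11.15, numpy 2.4.6, pandas 2.3.3, scipy 1.17.1 and matplotlib 3.10.9.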

Additional observations from a re-analysis of the deposited data

How the results depend on the processing

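For the 9 gene levels, 96 of 108 values under the alternatives kept their direction and their side of the threshold, 5 lost and 3 gained significance, and 4 changed sign. Those that changed sign were DDL, from -0.0569 to 0.0264 with single libraries left out (its transcript AT3G20550.1 likewise), and CBP20, from -0.0627 to 0.0595, neither of which passed the test in any setting. Members lower numbered 1 after cyclic loess scaling and after the length and GC adjustment, and 0 to 1 with single libraries left out, and members higher numbered 3 after the length and GC adjustment. AT1G01040.1 was -0.0837 after the length and GC adjustment and -0.0838 to 0.40 with single libraries left out, and AT5G44200.1 was -0.0504 to 1.03. Further biogenesis factors numbered 5 lower after cyclic loess scaling and 14 higher after the length and GC adjustment. DCL and DRB relatives numbered 3 higher after that adjustment, and 0 to 1 lower with single libraries left out. Effectors higher numbered 0 after that adjustment. The number of genes called for isoform usage was 1415, but 482 with a filter at 5 FPKM and 2212 with none, where other sets of transcripts were tested. The cause of the other shifts was not tested.

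Deviations from the genotype mean correlated at 0.043, 0.059 and 0.004 between libraries of the same number. Between libraries of different numbers the correlations were -0.072 to 0.032. These low values do not show that the numbers pair the libraries, and with 3 libraries per genotype they cannot exclude it. With the replicate number as a block, 2989 transcripts were higher in place of 4898, TGH's transcript had a limma adjusted p of 0.0815, and no other call on the 9 genes or their transcripts changed. Isoform usage of DCL1 had a diffSplice adjusted p of 0.0691 by limma with the block. Its unadjusted p was under 0.05 there, as were those of HST without Col-0 replicate 1 and of CBP20 without cdc5 replicate 3. Depth limits MIR162a, which rests on few fragments, and the minor transcripts of HST and HEN1, which lie under the floor in some libraries.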

Other observations

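Of 9 genes of microRNA turnover, 7 were higher in cdc5 and 1 was lower, and the median log2 fold change was 0.36, where 33.3% of all tested genes were higher and 22.4% lower. After the length and GC adjustment 5 were higher, with a median of 0.24, where 5124 of all 19470 genes tested were higher. SDN3, of a family of exonucleases that degrade microRNAs, rose from 13.7 to 22.6 FPKM (log2 fold change 0.68, limma adjusted p = 3.44e-05). XRN2, a nuclear exonuclease that degrades the loops of microRNA precursors, rose from 22.1 to 30.4 FPKM (0.44, limma adjusted p = 8.25e-05). URT1, which adds uridines to RNA ends, rose by 0.39 (limma adjusted p = 1.49e-04), and FRY1, a phosphatase that keeps XRN enzymes active, rose by 0.36 (limma adjusted p = 1.69e-04). The 1 that fell was XRN3 (28.7 to 24.1 FPKM, limma adjusted p = 0.00205), named after its value was seen.

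Of 74 listed microRNA targets, 70 were tested, with 35 higher and 14 lower and a median log2 fold change of 0.20. Over all genes tested, 33.3% were higher and 22.4% were lower, with a median of 0.06. All 6 tested targets of miR396, all 5 of miR166, all 5 of miR172, all 3 of miR160 and all 3 of miR393 rose, and all 3 of miR398 fell. Of the miR172 targets, TOE1 (0.89 FPKM in Col-0 and 1.98 FPKM in cdc5) and SMZ (0.65 FPKM and 1.57 FPKM) lay near the filter of 1 FPKM. The family counts were unchanged after cyclic loess scaling and the length and GC adjustment for miR396, miR393 and miR398. After either, 4 of 5 targets of miR172 and 1 of 3 of miR160 passed, and after the latter 4 of 5 of miR166. PHV, a leaf polarity factor targeted by miR166, rose from 21.96 to 40.6 FPKM (limma adjusted p = 5.32e-06), and GRF3, a growth regulator targeted by miR396, rose from 10.1 to 17.7 FPKM (limma adjusted p = 1.72e-05). The superoxide dismutase genes CSD1 and CSD2, targets of miR398, fell by 0.88 and 0.85 on the log2 scale (limma adjusted p = 4.30e-07 and 1.32e-07). Of 11 tested targets of miR156, 1 was higher and 5 were lower, with 6 or 7 lower under those scalings. After the length and GC adjustment the targets numbered 28 higher and 19 lower of 69 tested. Of all 19470 genes tested with that adjustment, 5124 were higher and 5167 lower. The families were described after their values were seen.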
